A study of Macaca mulatta with 24 samples.

Results

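Dorsal premotor cortex (PMd) and prefrontal area 46 (A46) of the rhesus monkey (Macaca mulatta) were compared by gene expression array. The comparison used the 6 arrays titled PMd and the 6 titled A46, 12 of the 24 arrays of the series, which also holds ventral premotor cortex (PMv) and the forelimb part of primary motor cortex (M1). Each area came from the left and right hemisphere of the same 3 adolescent animals, 2 males (animals 1 and 2, aged 2.7 and 2.6 years) and 1 female (animal 3, aged 2.7 years), kept in group cages and given no experimental treatment. PMd was cut from the caudal bank of the upper limb of the arcuate sulcus with the convexity in front of M1, and A46 from both banks of the principal sulcus, so area identity rests on sulcal landmarks. The 2 hemispheres were averaged within each animal, and PMd and A46 were paired by animal, giving 3 pairs.

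PMd prepares and selects reaching movements, sends axons to the spinal cord and to M1, and is agranular or nearly so, with large pyramidal cells in layer 5 and little layer 4. A46 lines the principal sulcus, has a distinct granular layer 4 and serves working memory through connections with other association areas. Motor cortex is known for heavier myelin and more neurofilament-rich neurons than prefrontal cortex. Each piece of tissue was a mixture of cell types, and in such bulk samples fewer cells of a type and less RNA per cell cannot be told apart.

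Values are log2 of the array intensity of the probe set with the highest mean for a gene, differences are PMd minus A46 on that log2 scale, and a gene is called when its limma p-value adjusted over all 26383 probe sets lies under 0.05. Over these 12 arrays the median intensity lay between 47.9 and 51.4, and the log2 values of any pair of arrays correlated at 0.989 to 0.997. RNA integrity was read from the log2 ratio of 3′ to 5′ probe sets, which was 0.99 ± 0.15 in PMd and 1.08 ± 0.11 in A46 for actin (SD, n = 3 animals). For GAPDH it was 0.95 ± 0.06 and 0.84 ± 0.05, higher in PMd in 3 of 3 animals (exact paired permutation test, two-sided, p = 0.25 for each, the smallest p that 3 pairs allow). The part of RNA integrity in the results below was not tested.

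Among the gene lists examined, those of oligodendrocytes and myelin and of neurofilament and large projection neurons had the highest median differences, both 0.62. These lists held 10 and 4 of the 182 genes called higher in PMd, and NEFH was the only neurofilament chain among those 4. Of their 25 and 10 genes, 14 and 6 were tested. The largest decreases were smaller than the largest rises. limma called 515 of 26383 probe sets (1.95%), 367 higher (1.39%) and 148 lower (0.561%) in PMd. They stood for 252 of 10043 genes (2.51%), 182 higher (1.81%) and 70 lower (0.697%). The higher genes had a median difference of 0.42 and the lower ones of -0.4, beside 0.01 over all genes tested, and 15 genes were at least 2-fold higher while 0 were at least 2-fold lower. That 0 holds for the highest-mean probe set of each gene: among all called probe sets 28 were at least 2-fold higher and 2 at least 2-fold lower, one of them for CD53. All 252 differed the same way in 3 of 3 animals, as 42.9% of all genes tested did. Among all genes, the 6 PMd arrays lay wholly above the 6 A46 arrays for 193 (1.92%) and wholly below for 97 (0.966%), of which 98 and 46 were called.

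The count of calls depended on the animals. It fell to 40 when animal 1 was left out and to 12 when animal 2 was, and it was 3055 (1513 higher, 1542 lower) when animal 3 was. A model with no term for the animal gave 8. The share of higher and lower calls also moved with the scaling: quantile normalization gave 564 higher and 395 lower calls, and a covariate for the SD of each sample's log2 values gave 1209 and 1308. Among the called higher genes the median difference was 0.49 in animal 1, 0.53 in animal 2 and 0.27 in animal 3, and among the lower ones -0.49, -0.38 and -0.3. Of the 50 called genes named by the rule, NEFH, RFTN2, SPP1, DIAPH3, HAPLN4 and DDX24 passed with any 1 animal left out. Under the alternatives run 0 of the 50 changed sign. Leaving out 1 animal could not reverse a sign that all 3 shared, nor could fits that keep the same means. Only settings that change the values, such as 1 hemisphere alone or another scaling, could have done so.

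**Figure D1:**
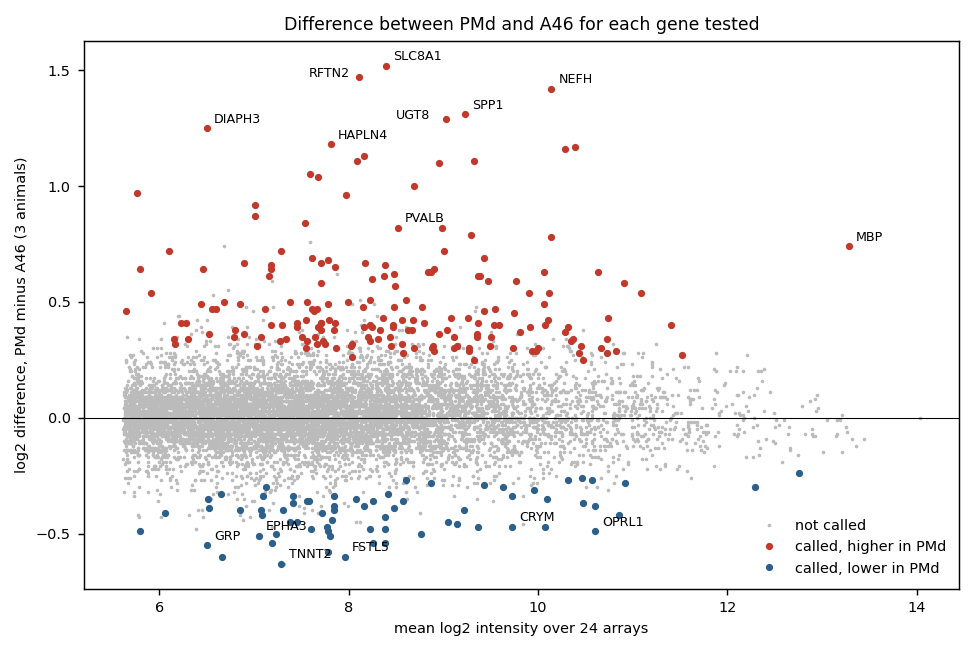
Difference between PMd and A46 for each of the 10043 genes tested. The x axis is the mean log2 intensity over all 24 arrays and the y axis the log2 difference PMd minus A46 over 3 animals; red points are the 182 genes called higher in PMd and blue points the 70 called lower. Red points reach 1.52 while blue points stop at -0.63.

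The neurofilament and large-neuron genes are described first. NEFH encodes the heavy neurofilament chain of thick axons, and its level in animals 1, 2 and 3 was 10.72, 10.28 and 10.2 in PMd against 9.24, 8.73 and 8.99 in A46. The lowest PMd array (10.12) lay above the highest A46 array (9.38), so the areas did not overlap. NEFH was 2.67-fold higher in PMd (log2 difference 1.42, SE 0.08, adjusted p = 3.77e-06), with 1.42 in the left and 1.41 in the right hemisphere.

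SPP1 encodes the secreted phosphoprotein osteopontin, which large projection neurons of primate cortex express. Its levels were 9.62, 9.55 and 8.95 in PMd and 8.26, 7.93 and 7.99 in A46, again without overlap of arrays, with animal 3 the lowest of the PMd animals. The difference was 1.31 (SE 0.13, adjusted p = 0.000584). VAMP1, the synaptobrevin of fast-transmitting terminals, was at 8.95, 8.76 and 8.55 in PMd and at 8.4, 8.31 and 8.28 in A46, a difference of 0.42 (SE 0.07, adjusted p = 0.0109) without overlap, lost without animal 1 or animal 2.

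PVALB, the calcium-binding protein of fast-spiking interneurons and of some large pyramidal cells in primates, was at 9.0, 8.91 and 8.33 in PMd and 8.23, 7.76 and 7.79 in A46. Every animal was higher in PMd, although the lowest PMd array (8.31) lay just under the highest A46 array (8.33). The difference was 0.82 (SE 0.1, adjusted p = 0.00198), and without animal 2 the adjusted p was 0.232. In all, 4 of 6 tested genes of the neurofilament and large projection neuron list rose and 0 fell, beside 1.81% and 0.697% of all genes, with a median difference of 0.62. The other members, the microtubule protein MAP1B (0.04) and the peripheral neuron filament PRPH (-0.03), did not pass.

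**Figure D2:**
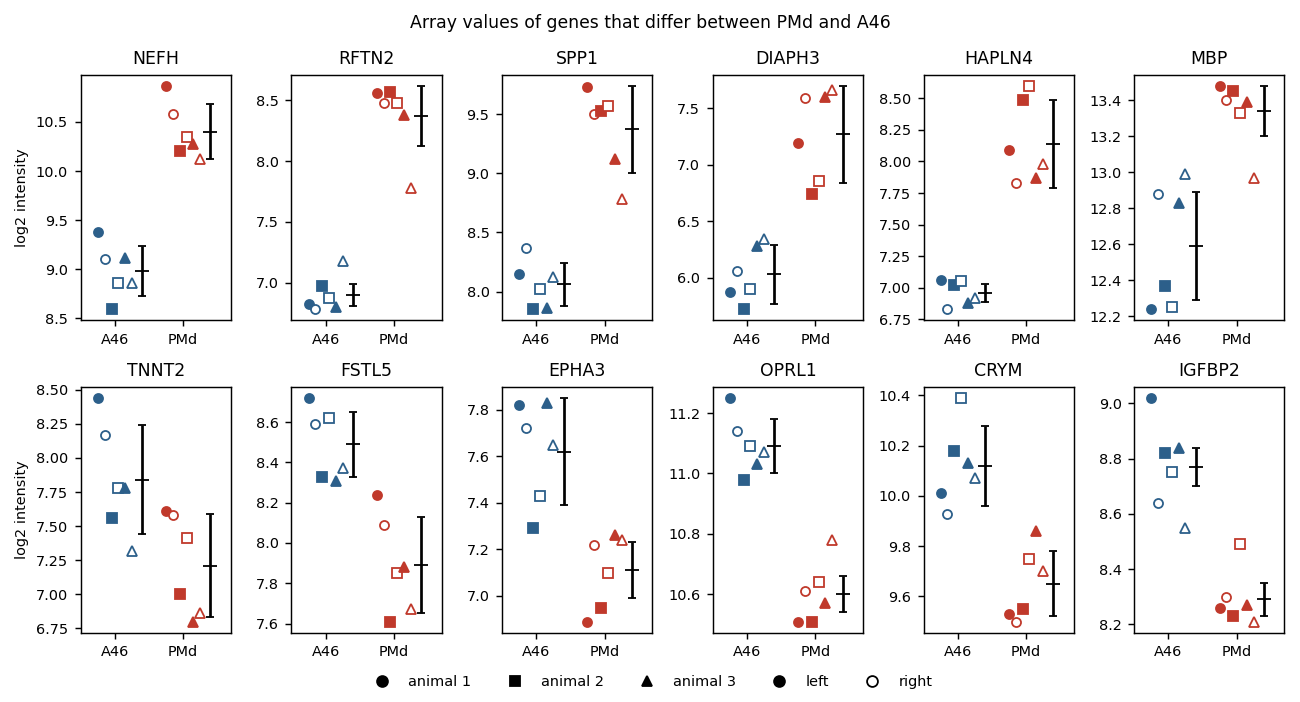
Log2 intensity of 12 genes on each of the 6 A46 (blue) and 6 PMd (red) arrays. Circles, squares and triangles are animals 1, 2 and 3, filled for the left and open for the right hemisphere, and the black bar is the mean ± SD over the 3 animals; each panel has its own y axis. The areas do not overlap for NEFH, RFTN2, SPP1, DIAPH3 and HAPLN4 in the upper row, while the right PMd array of animal 3 brings MBP down to 12.97, just under the highest A46 array at 12.99.

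Genes of fast firing gave 2 calls. SCN1A, the sodium channel that parvalbumin interneurons and other fast-spiking neurons rely on, was at 8.8, 8.47 and 8.07 in PMd and 8.31, 7.65 and 7.56 in A46. The areas overlapped across animals, but within each animal PMd was higher, by 0.6 on average (SE 0.12, adjusted p = 0.0213). The other SCN1A probe set gave 0.46 and did not pass (adjusted p = 0.061). The SCN1A call was lost without animal 1, without animal 2, with left hemispheres only, after median centring and with no term for the animal. The potassium channel KCNC1, which shortens action potentials, was higher by 0.32 (SE 0.07, adjusted p = 0.0463) and lost its call when any 1 of the 3 animals was left out. Of 8 tested genes in the list these 2 rose and 0 fell, beside 1.81% and 0.697% of all genes, with a median of 0.14. KCNA1, an axonal potassium channel, had the next smallest p (0.35, adjusted p = 0.115).

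The genes of oligodendrocytes, the cells that make myelin, held the largest group of calls. UGT8 makes galactosylceramide, the main glycolipid of myelin, and its levels in animals 1, 2 and 3 were 9.4, 9.09 and 8.93 in PMd and 7.99, 7.31 and 8.27 in A46. The lowest PMd array (8.6) was above the highest A46 array (8.48). The difference was 1.29 (SE 0.2, adjusted p = 0.00913), a 2.44-fold higher level.

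MBP encodes myelin basic protein, which holds the layers of the sheath together. It was at 13.44, 13.39 and 13.18 in PMd and 12.56, 12.31 and 12.91 in A46, a difference of 0.74 (SE 0.13, adjusted p = 0.0138) that was smallest in animal 3. GJB1, the gap junction protein connexin 32 of myelin, was at 7.84, 7.61 and 7.35 in PMd and at 6.79, 6.67 and 6.83 in A46. Its arrays did not overlap, and it was higher in PMd by 0.84 (SE 0.12, adjusted p = 0.0047).

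The other called members were ANLN, an actin-binding protein of myelinating cells (1.11), the proteolipid PLLP (0.82), the lineage transcription factors SOX10 (0.68), MYRF (0.58) and OLIG2 (0.39), the myelin proteolipid MAL (0.64) and the phospholipase ENPP2, also called autotaxin (0.61). MYRF was called on 1 of 2 probe sets, and the other had the opposite sign. SOX10 and OLIG2 each had 2 probe sets in this direction, of which 1 was called. Of 14 tested members 10 rose and 0 fell, beside 1.81% and 0.697% of all genes, and the median difference was 0.62. The PMd arrays lay wholly above the A46 arrays for 6 of the 14, beside 1.92% of all genes. Those that did not pass were ASPA, which splits N-acetylaspartate in oligodendrocytes (0.53, adjusted p = 0.102), the sulfatide enzyme GAL3ST1 (0.27), the dipeptidase CNDP1 (0.05) and CNP, an enzyme of non-compact myelin (-0.06, adjusted p = 0.791). CNP levels were 11.7, 11.77 and 11.89 in PMd and 11.83, 11.84 and 11.86 in A46, so the areas overlapped.

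The myelin difference was uneven between animals and hemispheres. Its median over the 14 genes was 0.81 in animal 1, 0.81 in animal 2 and 0.26 in animal 3, and 0.82 in the left and 0.47 in the right hemisphere. The right PMd array of animal 3 was the lowest PMd array for 12 of the 14 genes. Its mean log2 level over the list was 8.39, while the other PMd arrays lay between 8.73 and 8.98 and the A46 arrays between 7.99 and 8.37. The A46 arrays differed as well, at 7.99 left and 8.32 right in animal 1. They were at 7.99 and 8 in animal 2, and at 8.21 and 8.37 in animal 3. With the right PMd array of animal 3 left out, an alternative chosen after seeing the data, 11 of 14 genes were called.

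The summed intensity of the 14 genes was 14630 to 19860 on the PMd arrays and 10890 to 14620 on the A46 arrays. Without animal 1 or without animal 2, 0 of the 14 genes were called, and without animal 3 the number was 12. With no term for the animal 0 were called. The list median stayed positive in all 16 alternatives run, from 0.47 to 0.82. How much white matter each piece held was not measured, and its part in these differences was not tested.

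**Figure D3:**
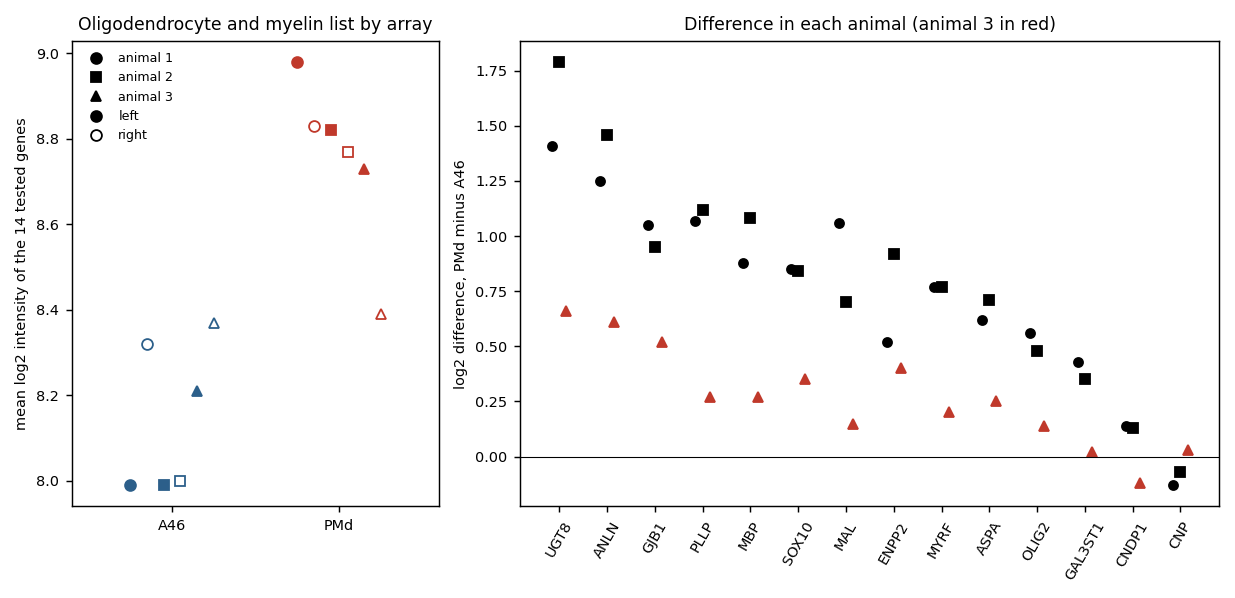
Left, mean log2 intensity of the 14 tested oligodendrocyte and myelin genes on each A46 (blue) and PMd (red) array, with marker shape for the animal and fill for the hemisphere. Right, the log2 difference PMd minus A46 of each gene in animal 1 (circles), animal 2 (squares) and animal 3 (red triangles); the red triangles lie below the black symbols for every gene except CNP, where they lie at 0.03.

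Several of the genes with the largest differences belonged to none of these lists. RFTN2, a raftlin that binds lipid rafts, was at 8.52, 8.52 and 8.08 in PMd and 6.8, 6.92 and 6.99 in A46, with no overlap of arrays. It was 2.77-fold higher in PMd (1.47, SE 0.12, adjusted p = 6.49e-05). HAPLN4, a link protein of the perineuronal nets that wrap fast-firing neurons, was at 7.96, 8.54 and 7.92 against 6.95, 7.04 and 6.9, a difference of 1.18 (SE 0.1, adjusted p = 6.89e-05) that every array shared.

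SLC8A1, a sodium-calcium exchanger, had the largest mean difference and the largest spread between animals. Its PMd levels were 9.54, 8.93 and 7.81 and its A46 levels 7.37, 7.0 and 7.35, so the difference was 2.17, 1.93 and 0.46 in animals 1, 2 and 3. The mean of 1.52 (SE 0.25, adjusted p = 0.01) came from 1 of 2 probe sets, and the other gave 0.5 (adjusted p = 0.0807). The RNA helicase DDX24 was higher by 1.16 (SE 0.11, adjusted p = 0.000222) on 1 of 3 probe sets, and the other probe sets gave -0.02 and -0.03, so the call belongs to that probe set and not to the gene as a whole.

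EVI2A (1.13, SE 0.21), the uncharacterised locus LOC699434 (1.17, SE 0.2) and SLC25A17, a carrier of the peroxisomal membrane (1.11, SE 0.16), completed the 12 genes with the largest rises. EVI2A and LOC699434 overlapped between areas by the right PMd array of animal 3, at 7.36 and 9.64. SLC25A17 did not overlap and had 3 of 3 probe sets in this direction, of which 2 were called. All 3 genes were lost without animal 1 or without animal 2.

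DIAPH3, a formin that builds actin filaments, differed from the genes above in its pattern across areas. Its levels in animals 1, 2 and 3 were 7.39, 6.8 and 7.63 in PMd and 5.96, 5.81 and 6.31 in A46, without overlap of arrays, a difference of 1.25 (SE 0.1, adjusted p = 3.67e-05). Against PMv it was higher in PMd by 0.89 (95% interval 0.68 to 1.09, adjusted p = 0.0119) and against M1 by 0.95 (0.74 to 1.15, adjusted p = 0.00187). DIAPH3 was highest in PMd of the 4 areas, at 7.27 beside 6.39 in PMv, 6.33 in M1 and 6.03 in A46, and it was measured by 1 probe set. Without animal 2 the differences from PMv (0.89, adjusted p = 0.508) and from M1 (0.96, adjusted p = 0.138) did not pass, while that from A46 did.

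By the highest-mean probe set of each gene, the largest falls in PMd were smaller than the largest rises. The median over called genes was 0.42 for the higher and -0.4 for the lower ones. TNNT2, a troponin T best known from heart muscle, had the largest fall. It was at 7.59, 7.21 and 6.83 in PMd and at 8.31, 7.67 and 7.55 in A46, so that animals overlapped between areas but each was lower in PMd, by 0.63 on average (SE 0.08, adjusted p = 0.00303). FSTL5, a follistatin-like secreted protein, was at 8.16, 7.73 and 7.78 against 8.65, 8.48 and 8.34, with no overlap of arrays, and fell by 0.6 (SE 0.1, adjusted p = 0.0109).

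Among the remaining genes with the largest falls were SLF1, a DNA repair factor (-0.6), GRP, the gastrin-releasing peptide (-0.55), the zinc finger protein OVOL2 (-0.54), the actin-capping protein TMOD1 (-0.54), the secreted matrix protein SPON2 (-0.5) and SOWAHA (-0.5). The membrane protease ST14 was lower by 0.54 on 1 of 3 probe sets, and the others gave 0.06 and 0.03. CD53, a tetraspanin of leukocytes, was at 7.71, 7.95 and 7.62 in PMd and 8.35, 8.32 and 8.35 in A46, a difference of -0.58 (SE 0.07, adjusted p = 0.00303). One other CD53 probe set was called at -1.18 and a further one gave 0.03. Without animal 2 none of these 8 falls nor those of TNNT2 and FSTL5 passed.

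Receptors and guidance genes gave few calls within lists whose medians lay near 0. EPHA3, an ephrin receptor that steers growing axons, was at 7.06, 7.02 and 7.25 in PMd and 7.77, 7.36 and 7.74 in A46. The highest PMd array (7.26) lay just under the lowest A46 array (7.29), and the difference was -0.51 (SE 0.08, adjusted p = 0.0108). Of 33 tested axon guidance genes UNC5B, a netrin receptor, rose (0.39), and EPHA3 and the semaphorin receptor PLXNA2 (-0.27, on 1 of 2 probe sets) fell, with a median of -0.05 over the list. Over all genes 1.81% were called higher and 0.697% lower. The PLXNA2 call was lost in 10 of 15 alternatives, among them the fit of PMd and A46 alone, either hemisphere alone, and leaving out animal 1 or animal 2. The calls of EPHA3 and UNC5B were lost without animal 1 or animal 2 and in either hemisphere alone. The repellent SLIT1 (-0.4, adjusted p = 0.0988) did not pass. SEMA3C, a secreted semaphorin, did not pass on its highest-mean probe set (-0.45, adjusted p = 0.0645). Its other probe set was called lower, at -0.56 (adjusted p = 0.0321).

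OPRL1, the nociceptin receptor, was at 10.56, 10.58 and 10.68 in PMd and 11.19, 11.04 and 11.05 in A46. The areas did not overlap, and it was lower by 0.49 (SE 0.07, adjusted p = 0.00532). It was the 1 call among 25 receptors of neuromodulators and neuropeptides (median -0.05), beside 0.697% of all genes called lower. The muscarinic receptors CHRM3 (-0.25) and CHRM1 (-0.24) and the serotonin receptor HTR2A (-0.02) did not pass. In the 10 tested glutamate receptor and CaM kinase genes 0 were called, with a median of -0.18 and 8 negative differences, 3 of them in all 3 animals. CAMK2A, the kinase of long-term potentiation, had -0.41 (SE 0.14, adjusted p = 0.16).

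Layer markers moved in both directions. FEZF2, which specifies subcerebral projection neurons of layer 5, was at 8.45, 8.35 and 8.32 in PMd and 7.93, 7.94 and 8.1 in A46, higher by 0.38 (SE 0.09, adjusted p = 0.0464). POU3F1, a transcription factor of the same neurons, rose by 0.35 (SE 0.07, adjusted p = 0.0234) without overlap of arrays. CRYM, a thyroid hormone-binding protein of layer 5 cells, was at 9.52, 9.65 and 9.78 in PMd and 9.97, 10.28 and 10.1 in A46, lower by 0.47 (SE 0.08, adjusted p = 0.00956) without overlap.

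TCERG1L also fell (-0.4), so that 2 of 11 tested layer 5 genes rose and 2 fell, beside 1.81% and 0.697% of all genes. The list median was -0.04. None of the 4 calls held without animal 1, without animal 2 or with no term for the animal. All 10 tested upper layer genes had a negative difference, as 4651 of all 10043 genes did, 7 of them in all 3 animals, but only FREM3, an extracellular matrix protein of superficial pyramidal cells, was called. FREM3 was at 7.42, 7.52 and 7.76 in PMd and 8.04, 7.91 and 8.11 in A46, a difference of -0.45 (SE 0.11, adjusted p = 0.0492) with some overlap of arrays. Its call was lost in 8 of 15 alternatives, among them either hemisphere alone, no intensity filter, and leaving out animal 1 or animal 2.

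The upper layer list had a median of -0.14. CUX2, the transcription factor of layers 2 to 4, was at 8.92, 9.03 and 8.9 in PMd and 9.42, 9.09 and 9.12 in A46 and did not pass (-0.26, SE 0.09, adjusted p = 0.188). RORB, the nuclear receptor that marks layer 4, had -0.4 (SE 0.12, adjusted p = 0.115). Of the 5 tested layer 4 genes and the 9 of layer 6 and subplate 0 were called, with medians of -0.12 and -0.02. The 6 genes listed as enriched in primate association cortex also had 0 calls (median -0.09), with RBP4, a retinol carrier, at -0.12 (adjusted p = 0.537) and PNMA5 at -0.05.

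Among genes of cortical patterning and retinoic acid signalling RARB, a retinoic acid receptor, was at 7.62, 7.59 and 7.78 in PMd and 8.35, 8.14 and 8.05 in A46. It fell by 0.51 (SE 0.09, adjusted p = 0.0135) without overlap. The other RARB probe set gave -0.26 and did not pass (adjusted p = 0.132). The nuclear receptor RORA rose by 0.46 (SE 0.09, adjusted p = 0.0197) from a level of 5.27 ± 0.02 in A46 (SD, n = 3 animals), which lies under the intensity limit of 5.62 that a gene's mean over 24 arrays had to reach. These were the only calls among 15 tested genes, whose median was 0, beside 1.81% of all genes called higher and 0.697% lower. The transcription factors NR2F1 (-0.34, adjusted p = 0.0519) and BHLHE22 (-0.41, adjusted p = 0.0622) did not pass.

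Mitochondrial respiratory chain genes shared a small positive difference. Of 34 tested, 30 were higher in PMd, 27 of them in all 3 animals, while 53.7% of all genes tested had a positive difference. The median was 0.18, and 3 genes were called, all higher, beside 1.81% of all genes: COX7B of complex IV (0.43, SE 0.08), NDUFA6 of complex I (0.34, SE 0.07) and ATP5F1C of the ATP synthase (0.28, SE 0.06). COX7B was at 11.16, 10.85 and 10.64 in PMd and at 10.5, 10.38 and 10.48 in A46, without overlap of arrays. NDUFA6 was called on 1 of 5 probe sets, all of which were higher. With animal 1 or animal 2 left out 0 of the 34 were called, and with animal 3 left out 19 were, of which 18 were higher.

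At the synapse SV2C, a synaptic vesicle protein, rose by 0.72 (SE 0.12, adjusted p = 0.0108). It stood at 7.61, 7.42 and 7.27 in PMd and 6.96, 6.4 and 6.8 in A46, without overlap. STX1A, the syntaxin of the release machinery, fell by 0.45 (SE 0.1, adjusted p = 0.0337). With VAMP1, counted above, 2 of 13 tested vesicle genes rose and 1 fell, beside 1.81% and 0.697% of all genes, and the median was -0.07. CRH, a neuropeptide of some interneurons, rose by 0.47 (SE 0.1, adjusted p = 0.0305), the only call among 11 interneuron genes besides PVALB. The list's median was 0.05, and GAD2, a GABA-synthesising enzyme (0.37, adjusted p = 0.167), and VIP, an interneuron peptide (-0.33, adjusted p = 0.0859), did not pass.

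Markers of other cells gave few calls, where 1.81% of all genes were called higher and 0.697% lower. Of 13 tested astrocyte genes 0 were called (median 0.01), although a lower-mean probe set of the member ALDOC was called at 0.24 (adjusted p = 0.0314). Of 9 endothelial and pericyte genes ITM2A, a membrane protein, rose (0.57, median 0.12). The other ITM2A probe set gave 0.31 (adjusted p = 0.148). CD53 was the only call among 14 microglia and leukocyte genes, whose median was 0.07. The growth factor-binding protein IGFBP2 fell by 0.48 (SE 0.06, adjusted p = 0.00313) in the meninges and choroid plexus list, which had a median of -0.06 over 11 genes. The summed intensity of the microglia list was 2895 to 3140 in PMd and 2966 to 3204 in A46, and that of the astrocyte list 31550 to 34930 and 31870 to 34010, so both overlapped between areas.

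No striatal (5 tested) or blood cell (2 tested) gene was called. CRYAB, a small heat shock protein also abundant in oligodendrocytes, rose by 0.63 (SE 0.12, adjusted p = 0.0193). It was the only call among 14 chaperone genes, beside 1.81% of all genes called higher. The cell adhesion gene CDH12 rose by 0.31 (adjusted p = 0.0352), the only call among 14 cadherins and protocadherins. GABA receptor genes (4 tested, median -0.12) and genes of axonal growth (12 tested, median -0.04) had 0 calls, and GAP43, the growth cone protein of the latter list, had 0.16 (adjusted p = 0.475). Another GAP43 probe set, with a lower mean, was called higher in PMd, at 0.25 (SE 0.06, adjusted p = 0.0491).

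**Figure D4:**
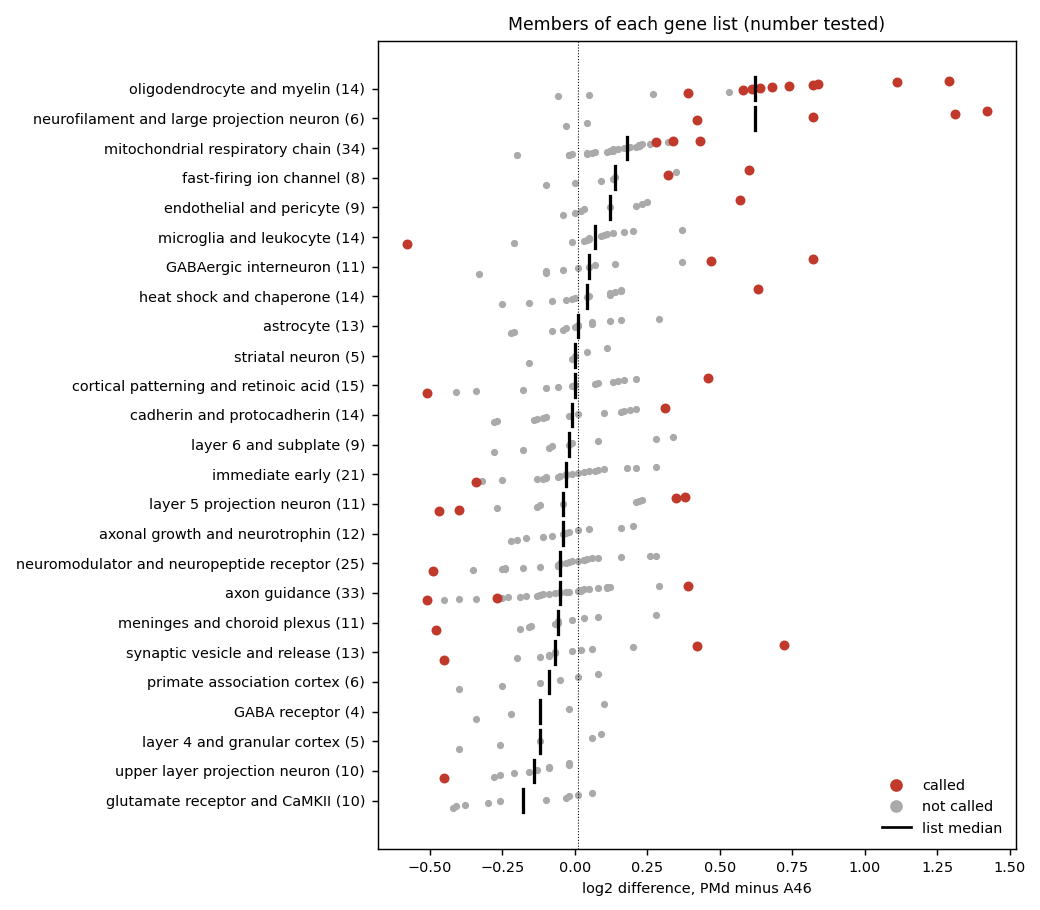
Log2 difference PMd minus A46 of the tested genes of each list, with the number tested in parentheses; red points are called genes, grey points are not called, black bars are list medians and the dotted line is the median of all genes tested, 0.01. The bars of the oligodendrocyte and neurofilament lists stand at 0.62, the glutamate list is lowest at -0.18, and the list of 2 blood cell genes is not drawn.

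The position of PMd among the other areas was tested directly against M1 and PMv. Differences of M1 and PMv from A46 share the A46 arrays with the comparison above, so their values are given side by side only. Against M1, limma called 87 of 26383 probe sets (0.33%), 42 higher (0.159%) and 45 lower (0.171%) in PMd, which stood for 44 of 10043 genes (0.438%). Against PMv it called 2 probe sets (0.00758%; 1425 at an unadjusted p under 0.05), those of DIAPH3 and FOS, both higher in PMd (0.0199% of genes). Leaving out animal 3 raised that count to 1398, 1292 higher and 106 lower in PMd, and leaving out animal 2 gave 0. The same probe sets were the 2 calls, also 0.0199% of genes, against the mean of M1 and PMv.

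Several large-neuron and myelin genes that were higher in PMd than in A46 were higher still in M1. NEFH averaged 11.22 in M1, 10.4 in PMd, 9.95 in PMv and 8.98 in A46, and PMd was lower than M1 by 0.82 (SE 0.08, adjusted p = 0.00187). RFTN2 (PMd minus M1 -0.9, adjusted p = 0.0184), SPP1 (-0.96, adjusted p = 0.0188), SLC25A17 (-0.87, adjusted p = 0.0408) and GJB1 (-0.74, adjusted p = 0.0258) were also lower in PMd. Over the 14 myelin genes the median of PMd minus M1 was -0.55, with 13 negative and GJB1 the 1 called (0.209% of all genes were called lower). UGT8 (-0.98, adjusted p = 0.0708) and MBP (-0.45, adjusted p = 0.218) did not pass. No probe set passed against M1 without animal 2, where NEFH still differed by -0.88 (adjusted p = 0.138; 679 probe sets at an unadjusted p under 0.05), and without animal 1 GJB1 and SLC25A17 did not pass.

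Against PMv no myelin gene was called. The median over the myelin genes was 0.03, and for MBP the difference was -0.08 with a 95% interval of -0.36 to 0.21. For UGT8 it was 0.11 (-0.33 to 0.55), which leaves room for a difference either way. NEFH (0.45, 95% interval 0.28 to 0.62), PVALB (0.53, 0.32 to 0.75) and SV2C (0.46, 0.2 to 0.71) had intervals above 0 for the single gene, but none passed after adjustment over all probe sets (adjusted p = 0.257, 0.297 and 0.812).

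Some genes lower in PMd than in A46 were lower again in M1. FREM3 averaged 8.02 in A46, 7.57 in PMd, 7.56 in PMv and 6.65 in M1, and PMd exceeded M1 by 0.92 (SE 0.11, adjusted p = 0.00623), while PMd and PMv differed by less than their spread (0.01, 95% interval -0.22 to 0.24). EPHA3 had the same order except that PMv (7.2) and PMd (7.11) changed places, and PMd exceeded M1 by 0.83 (SE 0.08, adjusted p = 0.00187). RBP4, which was not called between PMd and A46, was higher in PMd than in M1 by 0.61 (adjusted p = 0.0188), as were OPRL1 (0.48, adjusted p = 0.0188) and TSHZ2, a layer 5 transcription factor (0.54, adjusted p = 0.0328). TSHZ2 was lost when any 1 of the 3 animals was left out.

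Other genes were not called between PMd and M1. IGFBP2 averaged 8.77 in A46, 8.29 in PMd, 8.21 in PMv and 8.25 in M1, with a PMd minus M1 interval of -0.09 to 0.18. RARB averaged 8.18, 7.66, 7.79 and 7.56 in the same order, with an interval of -0.09 to 0.3. CRYM was higher in PMd than in M1 by 0.23, with an interval above 0 for the single gene (0.07 to 0.4) that did not pass after adjustment (adjusted p = 0.293).

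**Figure D5:**
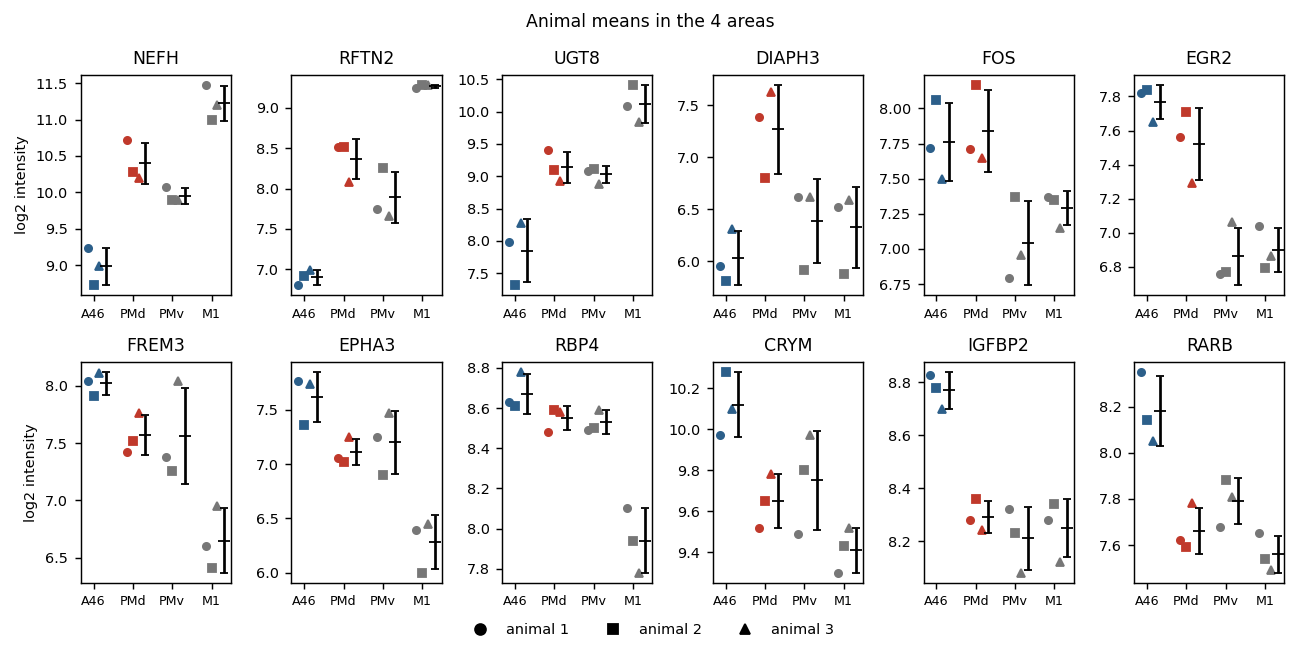
Animal means of 12 genes in A46 (blue), PMd (red), PMv and M1 (grey), as log2 intensity with the mean ± SD over 3 animals; circles, squares and triangles are animals 1, 2 and 3, and each panel has its own y axis. DIAPH3 is highest in PMd, NEFH and RFTN2 are highest in M1, and FOS and EGR2 lie higher in A46 and PMd than in PMv and M1.

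Immediate early genes, which neurons transcribe within minutes of activity, gave 1 call between PMd and A46. FOS, the best known of them, was at 7.71, 8.17 and 7.65 in PMd and 7.72, 8.06 and 7.5 in A46, a difference of 0.08 (95% interval -0.14 to 0.3, adjusted p = 0.778). Of 21 tested genes 0 rose and IER5 fell (-0.34, adjusted p = 0.045), beside 1.81% and 0.697% of all genes, and the median was -0.03. The IER5 call was lost in 8 of 15 alternatives, among them either hemisphere alone, no intensity filter, and leaving out animal 1 or animal 2. The transcription factor EGR2 had -0.25 (adjusted p = 0.316).

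Against the other motor areas, PMd was higher in several of these genes. FOS averaged 7.84 in PMd, 7.04 in PMv and 7.29 in M1, higher in PMd than in PMv by 0.8 (adjusted p = 0.0307) and than in M1 by 0.55 (adjusted p = 0.0406). Against M1, EGR2 (0.62, adjusted p = 0.0414) and EGR4 (0.55, adjusted p = 0.0258) were called too, 3 of 21 genes beside 0.229% of all genes called higher. PMd was above M1 in 20 of the 21 (median 0.26, beside 0.01 over all genes tested). It was above PMv in 20 (median 0.33, beside 0.04), with 1 called, beside 0.0199% of all genes. All 21 were measured in the same 3 animals, so the genes are not separate replicates. The difference in FOS between PMd and PMv did not pass without animal 1 (adjusted p = 0.205) or without animal 2 (adjusted p = 0.949), and that in EGR2 between PMd and M1 did not pass without animal 1 (adjusted p = 0.0984). Without animal 2 the differences of FOS (0.42), EGR2 (0.48) and EGR4 (0.41) from M1 did not pass either. The order or time at which the areas were dissected is not given in the sources used here, and its part was not tested.

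The difference between PMd and A46 was also compared between hemispheres. limma called 0 of 26383 probe sets for left minus right (smallest adjusted p = 0.681; 887 at an unadjusted p under 0.05). The difference in MBP was 0.96 on the left and 0.53 on the right, and in UGT8 1.58 and 1.0, while that in NEFH was nearly the same on both sides.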

How the data were processed

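Total RNA from each dissected piece was biotin-labelled and hybridised to 1 one-colour Affymetrix Rhesus array, per the labels' protocols. The values deposited by the authors are linear array intensities per probe set, summarised by robust multi-array average (RMA), as the submitters' processing notes name it. Its version is not given in the sources used here, nor is the set of arrays it took together. RMA gives arrays a common distribution, so a shift of all transcripts together cannot be seen. Intensities were converted to log2, with a floor of 1 that 0 values lay below.

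Of 52865 probe sets 99 controls were removed. GEO's platform annotation gave 1 symbol to 24956, several to 361 and none to 27449, and 24616 of the 24956 matched a current entry by Entrez ID, with 0 symbols updated. Probe sets with a mean log2 over the 24 arrays below the median, 5.62 (intensity 49.3), were left out, keeping 26383. The highest-mean probe set stood for each of 10043 genes.

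limma 3.58.1 (R 4.3.3; lmFit, eBayes with intensity trend) was fitted to 12 animal-by-area means of all 4 areas, with area and animal as terms (6 residual and 6.98 prior degrees of freedom), two-sided with Benjamini-Hochberg adjustment. After area means were removed, PMd and A46 of one animal correlated at 0.596, 0.643 and 0.591, so the animal numbers in the titles pair the samples. Those of different animals correlated at -0.399 to -0.227. Removing the mean over 3 animals pushes these below 0 when the same-animal values are positive, so they are not separate evidence. No 2 arrays shared more than 109 identical values. The number of animals, 3, limits the precision. On simulated data with 100 changed probe sets of each size among 26383, 66% of log2 changes of 0.5 and 100% of changes of 1 were recovered, with 11 false calls. The simulated noise was normal and independent for each probe set and sample. Noise shared across genes within a sample was not simulated, so these rates may not hold for the real data.

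The 26 gene lists (522 genes, 313 tested) and the comparison itself were chosen with earlier results of these data known. Genes on several lists count in each. Genes were named by rule: up to 12 called each way with the largest differences and the same sign in 3 animals, up to 4 per list with the smallest p, those called against the mean of M1 and PMv, and 22 fixed names. EGR4, PRPH, MAP1B and the myelin, layer and matrix genes given as short lists were named to complete a count after their values were seen. A planned description of promoter motifs was not run, since no promoter sequences were used here.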

Additional observations from a re-analysis of the deposited data

Results flagged for a closer look

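For 238 groups of 6 arrays, the 119 named genes in PMd and in A46, the lowest or highest array was set against the others with Dixon's test, which by chance flags about 1 in 20 groups. It flagged 11. The 2 hemispheres of an animal are not independent, so these groups hold fewer independent samples than arrays.

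In PMd the right array of animal 3 stood apart as the lowest for 5 genes: the myelin gene MBP (12.97), EVI2A (7.36), LOC699434 (9.64), RFTN2 (7.78) and the GABA-synthesising enzyme GAD2 (7.5). Without that array all 50 called named genes remained called and the number of probe sets called was 683. One other PMd array, the right one of animal 2, was apart as the highest for IGFBP2 (8.49).

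In A46 the arrays that stood apart were spread over several animals. The respiratory chain gene COX7B (10.26) and the exchanger SLC8A1 (6.49) each had 1 low array, both in animal 2. The neuropeptide CRH (7.47) had 1 high array, the right one of animal 3. The serotonin receptor HTR2A (8.32) and the microglial adaptor TYROBP (7.19) were each apart as the highest on the left array of animal 1.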

How the results depend on the processing

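The comparison of PMd with A46 called 515 probe sets, and the number was within 1.5 times of that in fits of PMd and A46 alone (740), without the intensity filter (451), with a stricter one (512), without the intensity trend (382), with right hemispheres only (354) and, chosen after seeing the data, without the right PMd array of animal 3 (683). It was 1304 on 24 arrays with animal-by-area pairs as a random block, 149 with left hemispheres only, 959 after quantile normalization, 199 after centring each array on its median and 2517 with a covariate for the SD of each sample's log2 values. Leaving out 1 animal gave 12 to 3055 calls here, 0 to 239 for PMd minus M1 (87), 0 to 1398 for PMd minus PMv (2) and 0 to 19 for PMd minus the mean of M1 and PMv (2). The causes were not tested.

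Without the replicate block, that is with no term for the animal, the counts were 8, 0, 0 and 0 in the same order, with 1955, 1017, 559 and 380 at an unadjusted p under 0.05. Quantile normalization gave 257 for PMd minus M1, 1 for PMd minus PMv and 3 for the last. Of the 50 called named genes 2 (NEFH and RFTN2) kept their call without the block, 8 when animal 1 was left out, 6 when animal 2 was and 49 when animal 3 was. In the 15 settings 0 reversed, but most settings, among them leaving out 1 animal, could not reverse a sign shared by all animals. The left minus right comparison had 0 calls in each of its settings. List medians near 0, such as those of layer 5 (-0.09 to 0.02) and interneuron genes (-0.03 to 0.14), changed sign between settings.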

Other observations

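Genes of the perineuronal net and of the matrix at nodes of Ranvier were looked at as a group after HAPLN4 and ACAN were seen among the calls, so they are described without a test of the group. ACAN encodes aggrecan, the main proteoglycan of the nets. It was at 8.9, 8.94 and 8.41 in PMd and 7.77, 7.46 and 8.03 in A46 for animals 1, 2 and 3, a difference of 1 (SE 0.17, adjusted p = 0.0123). Of the 3 ACAN probe sets 2 were called in this direction, and the other had the opposite sign. HAPLN2, the link protein found at nodes, was at 7.98, 7.96 and 7.72 against 7.27, 7.04 and 7.39 (0.65, SE 0.13, adjusted p = 0.0213). Neither passed without animal 1 (adjusted p = 0.167 and 0.199) or without animal 2 (0.236 and 0.314).

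With HAPLN4, 3 of 10 tested genes of this group were higher in PMd and 0 lower, beside 1.81% and 0.697% of all genes. The members that did not pass were the proteoglycans VCAN (0.26) and BCAN (-0.05), the link proteins HAPLN1 (0.01) and HAPLN3 (-0.02), the hyaluronan synthases HAS1 (-0.06) and HAS3 (0.05) and the receptor phosphatase PTPRZ1 (-0.07). ACAN averaged 8.71 in PMv and 9.54 in M1, and PMd minus M1 was -0.79 (adjusted p = 0.0778).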
